A study of Mus musculus with 2 samples.

Results

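The genes described here encode the nuclear subunits of the oxidative phosphorylation machinery, measured as RNA in primary microglia, which are the macrophages that reside in brain and spinal cord. Members were the genes whose symbols start with Nduf followed by a, b, c, s or v and a number, with Sdh (a to d), Uqcr, Cox4 to Cox8 or Atp5, and assembly factors named Ndufaf were left out. The rule took 84 symbols of the 26607 rows of the table, of which 78 had a mean of at least 1 FPKM (fragments mapped per kilobase of transcript, normalised to library size) over both libraries. The study sequenced 2 libraries of poly(A)-selected RNA, 1 from microglia transfected with a control vector and 1 from microglia transfected with a vector meant to overexpress Per2, whose protein represses CLOCK-BMAL1 in the circadian clock. No strain, age, culture time or vector promoter is given in the labels. The labels name the mouse, while the gene identifiers and the genome build are of the rat.

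Oxidative phosphorylation takes place in the inner mitochondrial membrane. Complexes I and II pass electrons from NADH and succinate to ubiquinone, complex III passes them on to cytochrome c, complex IV passes them to oxygen, and complex V uses the proton gradient that builds up to make ATP. Most subunits are encoded in the nucleus and imported, and the rest, apart from complex II, come from mitochondrial DNA. Nuclear respiratory factor 1 (NRF1), ETS-family factors such as GABPA, and YY1 are known to bind promoters of many subunit genes. Activated macrophages are known to shift between oxidative and glycolytic metabolism.

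The promoters of 3 members are shown because they stand at different points of the comparison below: Cox6a1 had the highest FPKM of the 78 in both libraries, Atp5f1e had the highest ratio among the abundant members, and Sdha was among the members with lower values in the library labelled Per2 overexpression. They are mouse sequences from RefSeq (GRCm38.p6), 250 bases before to 50 after the gene start, and 66 of the 84 members had such an entry. Capitals mark letters that match one of the motifs searched on both strands, GCGCATGC for the NRF1 core, CCGGAAG for ETS factors, AAGATGGC for YY1 and CACGTG for the E-box of CLOCK-BMAL1. The ETS and YY1 letters can overlap by AAG, and the NRF1 core can overlap its own reverse complement, and in the Cox6a1 window it did.
Cox6a1, chr5:115348909-115349208, minus strand: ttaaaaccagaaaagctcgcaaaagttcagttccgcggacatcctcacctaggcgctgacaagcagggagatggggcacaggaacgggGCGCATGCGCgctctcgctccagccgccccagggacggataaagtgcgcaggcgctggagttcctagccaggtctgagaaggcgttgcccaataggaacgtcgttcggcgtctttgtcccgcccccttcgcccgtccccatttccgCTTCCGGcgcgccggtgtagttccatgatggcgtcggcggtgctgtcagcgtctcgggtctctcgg
Atp5f1e (Atp5e in RefSeq), chr2:174464052-174464351, minus strand: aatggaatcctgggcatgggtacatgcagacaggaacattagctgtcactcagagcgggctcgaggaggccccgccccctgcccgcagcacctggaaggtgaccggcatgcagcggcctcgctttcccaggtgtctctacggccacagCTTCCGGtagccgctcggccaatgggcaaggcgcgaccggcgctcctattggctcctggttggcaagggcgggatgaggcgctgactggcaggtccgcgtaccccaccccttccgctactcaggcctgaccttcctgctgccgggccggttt
Sdha, chr13:74350191-74350490, minus strand: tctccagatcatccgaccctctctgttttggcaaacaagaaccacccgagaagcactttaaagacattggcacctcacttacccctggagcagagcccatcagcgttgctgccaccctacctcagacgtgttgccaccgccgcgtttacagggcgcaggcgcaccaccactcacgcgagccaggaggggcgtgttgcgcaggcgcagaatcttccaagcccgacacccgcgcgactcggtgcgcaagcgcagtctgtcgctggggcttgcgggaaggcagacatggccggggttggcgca
The Cox6a1 window held an NRF1 match on either strand and an ETS match, the Atp5f1e window held an ETS match, and the Sdha window held none of these letters. Over the 71 promoter windows of members (5 genes had more than 1), the NRF1 core stood in 10 windows (14.1%, against 2.71% of all 32851 windows in the table), the ETS letters in 17 (23.9% against 8.86%), the YY1 letters in 9 (12.7% against 2.75%) and the E-box in 7 (9.86% against 7.15%). These are letter matches in mouse sequence and were not measured as binding. The 3 windows shown were chosen by level and ratio, and whether matches go with the ratio was not tested.

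Because there was 1 library in each group, the differences have no replicate check, no test could be run, and neither SDs nor p-values are given. Ratios are log2((FPKM + 1) in the library labelled Per2 overexpression/(FPKM + 1) in the library labelled control), and the control-labelled value comes first throughout. Per2 itself went against the labels, with 6.90 against 0.927 FPKM (log2 ratio -2.04), so every direction below is that of the labels, and no gain of Per2 RNA was measured. Of the microglia markers, Aif1 (579 against 491 FPKM) and Tyrobp (1076 against 1364) were abundant, P2ry12 had 0.650 against 0.0802, while Cx3cr1 stood at 0 in each library. FPKM summed to 659696 in the control-labelled and 760286 in the Per2-labelled library, and the depth is unknown.

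Most subunit genes had higher values in the library labelled Per2 overexpression, by amounts under 2-fold. Of the 78 measured members, 71 had a log2 ratio above 0, which 35.9% of all 12369 rows past the filter had, and 7 were below 0. At least 2-fold higher were 2 members (2.19% of all rows were called so), and 0 were at least 2-fold lower (5.93% of all rows). The median log2 ratio of the members was 0.65, with the middle 50% of them between 0.40 and 0.76, while the median of all rows was -0.18, with the middle 50% between -0.50 and 0.17. The members together summed to 13601 against 20687 FPKM, which was 2.06% against 2.72% of all FPKM of the library. Their median level was 152 against 221 FPKM. The order of the members by level was much alike in both libraries (Spearman's rho 0.97 across 78 genes, which are not independent, and 0.95 across all rows). In bulk RNA, more cells of a type and more RNA per cell cannot be told apart.

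**Figure D1:**
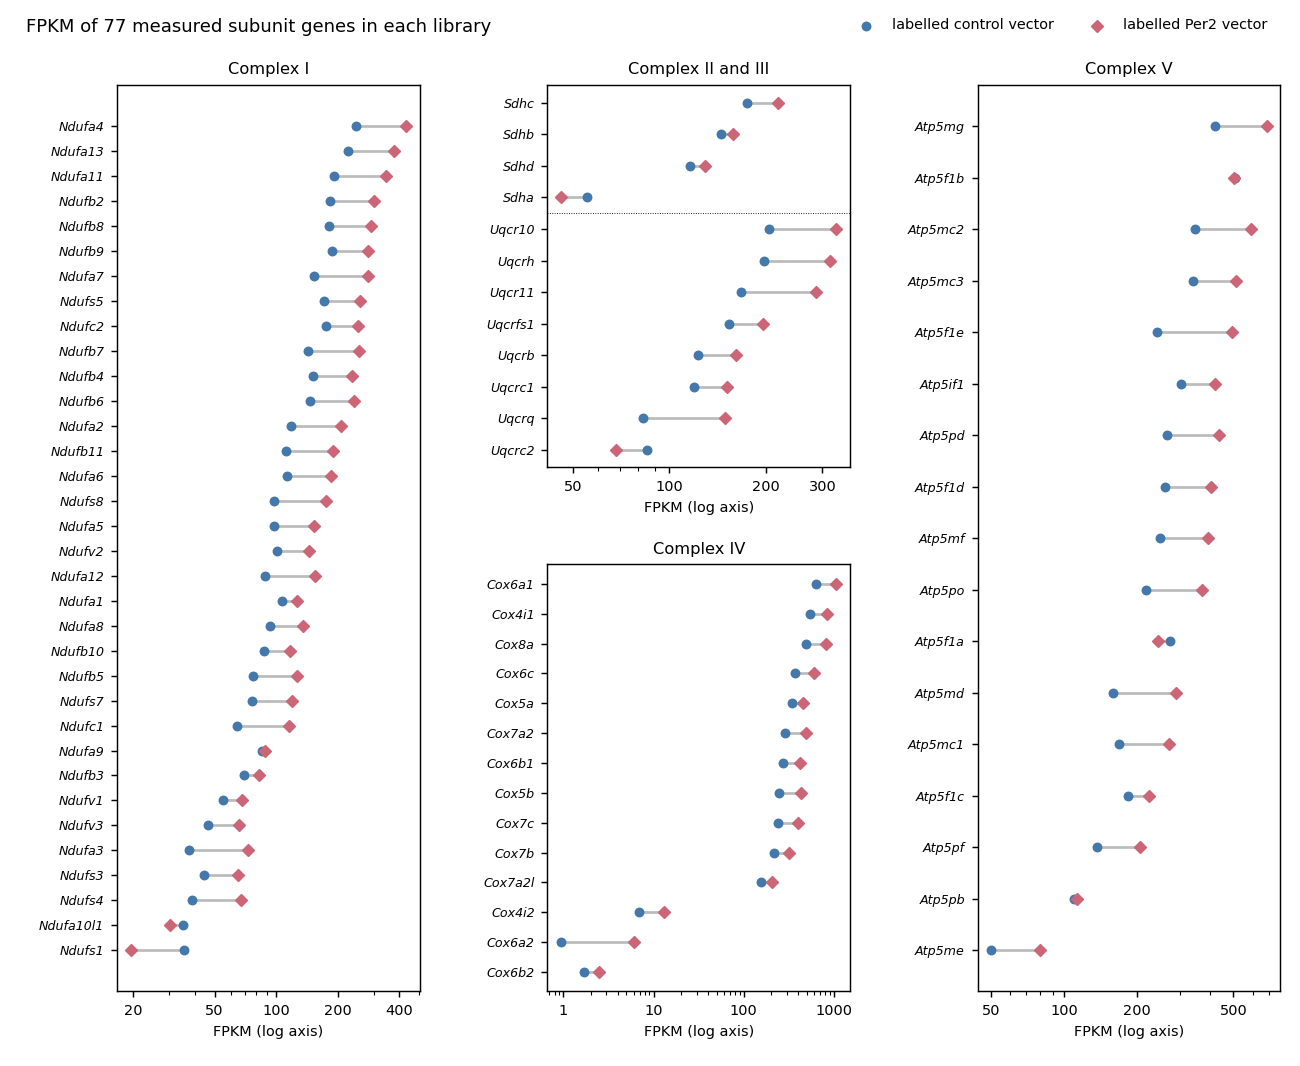
FPKM of 77 of the 78 measured members (log axis, a separate scale in each panel) in the library labelled control vector (circles) and the library labelled Per2 vector (diamonds), 1 library each, grouped by complex and ordered by mean level. The diamond lies to the right of the circle for 71 genes, and to the left for Ndufs1, Ndufa10l1, Sdha, Uqcrc2, Atp5f1a and Atp5f1b.

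The scale of the values moves most ratios by a similar amount, but not those of low genes such as Cox6a2, because of the pseudocount. The difference in summed FPKM is 0.205 on the log2 scale, and TPM scaling (a sum of 1000000 per library) put the median of the members at 0.44 and that of all rows at -0.37. Median-of-ratios centring put them at 0.86 and -0.00037. Under TPM, 67 of the 78 members stayed above 0, and Atp5pb, Ndufa9, Sdhb and Sdhd turned below it. Under the centring, 74 were above 0, with Atp5f1a and Atp5f1b among those that turned above it. The directions of 7 members therefore depend on the scaling, and those of the other 71 did not turn under either.

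Complex I, the NADH dehydrogenase, held 36 members, of which 35 were measured. Their median log2 ratio was 0.64, with 32 above 0, and the sum of their values was 3945 against 6145 FPKM. The 7 core subunits, most of which carry the flavin or iron-sulfur clusters or bind ubiquinone, spanned the widest range among them. Ndufs1, the largest iron-sulfur subunit, had 35.4 against 19.5 FPKM, a log2 ratio of -0.83 that was the lowest of all 78 members. Ndufs1 was at least 2-fold lower only after rescaling to TPM (-1.04). Higher values in the Per2-labelled library were seen for 5 core genes. Ndufv1, which binds NADH and flavin, had 54.8 against 68.0 FPKM (0.31), and its partner Ndufv2 had 100.5 against 144 (0.52). Ndufs3 had 44.1 against 64.8 (0.54), Ndufs7 had 76.6 against 119 (0.63) and Ndufs8, which carries iron-sulfur clusters near the membrane, had 97.3 against 176 (0.84).

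The 28 accessory subunits of complex I surround the core and are needed for its assembly and stability. All 28 were measured and 27 were above 0, with a median log2 ratio of 0.70. The exception was Ndufa10l1, with 35.2 against 30.3 FPKM (-0.21), whose symbol also stood on a second row with 10.3 against 4.67. The highest ratio was that of Ndufa3, with 37.6 against 72.5 FPKM (0.93), followed by Ndufa7 with 153 against 279.9 (0.87) and Ndufa11 with 192 against 342 (0.83). The most abundant was Ndufa4, with 244 against 431 FPKM (0.82), a protein that is now placed in complex IV although its name is of complex I. Ndufa13, also known as GRIM-19, had 224 against 376 (0.75). Ndufa9 had 84.8 against 87.9 FPKM (0.05), Ndufb3 had 69.8 against 82.6 (0.24) and Ndufa1 had 107 against 127 (0.25), so these 3 were the lowest of the 27 above 0. Ndufs4, whose loss causes a Leigh-like disease in mice, had 38.7 against 67.6 FPKM (0.79). The remaining accessory genes had log2 ratios between 0.41 (Ndufb10, 87.5 against 117 FPKM) and 0.82 (Ndufc1, 64.4 against 115, and Ndufb7, 143 against 254). Ndufv3 had 46.6 against 65.5 FPKM on the row kept and 0.322 against 2.33 on a second row.

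Complex II, succinate dehydrogenase, belongs to both the respiratory chain and the citrate cycle. Its 4 genes had the median nearest to 0 of the complexes in the deposited values. With the length trend removed on the longest transcripts, complex III was nearer. On median transcript lengths complex II was again the nearest (0.10, against 0.45 for complex III). Sdha, the flavoprotein that oxidises succinate, had 55.4 against 45.9 FPKM (-0.26). Sdhb, the iron-sulfur subunit, had 145 against 158 (0.12). The membrane anchors Sdhc and Sdhd had 174 against 218 (0.32) and 116 against 129 (0.15). Their median log2 ratio was 0.14, and it was -0.068 after rescaling to TPM, so the complex as a group had no direction independent of the scaling.

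Complex III, the cytochrome bc1 complex, had 8 measured members and a median log2 ratio of 0.54. Uqcrc2 had 85.0 against 68.2 FPKM (-0.31), the second lowest ratio of all 78 members, and Uqcrc1 had 119 against 151 (0.34). Uqcrfs1, the Rieske iron-sulfur protein that passes electrons to cytochrome c1, had 154 against 196 (0.35). The 5 small accessory genes had a median of 0.70. Uqcrq had 82.7 against 149 FPKM (0.84), Uqcr11 had 167 against 287 (0.78), Uqcr10 had 205 against 332 (0.70), and Uqcrh, the hinge protein, had 197 against 317 (0.68). Uqcrb, which takes part in ubiquinone binding, had 123 against 161 (0.39), and a second row with its symbol had 35.8 against 56.2. Uqcrc1 and Uqcrb were close in ratio, but they were the higher of the core pair and the lowest of the 5 accessory genes. The core pair, Uqcrc1 and Uqcrc2, had a median of 0.016.

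Complex IV, cytochrome c oxidase, had the highest median log2 ratio of the complexes, 0.73, and all 14 measured members were above 0 under the deposited scale and both other scalings. With the length trend removed on the longest transcripts, its median was 0.14, below those of complexes I and V, and 11 of the 14 were above 0. On median transcript lengths its median was still the highest (0.58, against 0.54 for complex I and 0.52 for complex V). The 10 ubiquitous subunits of complex IV lay close together, between 0.40 and 0.79. Cox6a1 had 630.0 against 1069 FPKM (0.76), Cox4i1, the largest nuclear subunit, had 539.7 against 845 (0.65), and Cox8a had 485 against 820.4 (0.76). Cox5b had 248 against 429.9 FPKM (0.79), the highest ratio of the 10, and its partner in name Cox5a had 343 against 454 (0.40), the lowest. Between them lay Cox7a2 (287 against 494), Cox7c (240.4 against 402), Cox6c (369 against 606), Cox6b1 (274 against 424) and Cox7b (215 against 318). Cox7a2l, which joins complexes III and IV in supercomplexes, had 154 against 207 (0.42). A second Cox6b1 row had 49.3 against 73.6 FPKM.

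Several subunits of complexes I and IV have isoforms that are mostly restricted to certain tissues, and 8 of these were among the members. Cox6a2, the heart and muscle isoform, had 0.942 against 6.003 FPKM (1.85), the highest ratio of all 78 members and 1 of the 2 past 2-fold. At this low level the ratio rests on the pseudocount, being 2.55 with 0.1 FPKM added and 0.89 with 5 FPKM added, where it was under 2-fold and below that of Atp5f1e (1.01). It made up 0.149% against 0.559% of the summed Cox6a1 and Cox6a2 values, so Cox6a1 remained the predominant form. Cox4i2, the isoform of lung and of low oxygen, had 6.83 against 13.2 FPKM (0.86), or 1.25% against 1.54% of the summed Cox4i1 and Cox4i2 values. Cox6b2, the testis isoform, had 1.71 against 2.52 (0.38). Under the filter were Ndufa4l2, a hypoxia-induced relative of Ndufa4, with 0.228 against 0.350, and Cox7a1, a heart and muscle isoform, with 0.162 against 0.0511. Cox7b2, Cox8b, Cox8c and the pseudogene Cox6c-ps1 were listed at 0 in both libraries. At levels as low as that of Cox6a2, a ratio of 2 libraries of unknown depth is uncertain.

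Complex V, the ATP synthase, had 17 measured members, 15 of them above 0, and a median log2 ratio of 0.66. The genes of its catalytic F1 head spread widely in the deposited values. Atp5f1b, the catalytic beta subunit, had 509 against 503 FPKM (-0.016), and Atp5f1a, the alpha subunit, had 274 against 245 (-0.16). Atp5f1c, the gamma subunit of the rotor shaft, had 184 against 224 (0.29) and Atp5f1d, the delta subunit, had 261 against 404 (0.63). Atp5f1e, the small epsilon subunit, had 242 against 492 FPKM (1.02), the other member past 2-fold, and it was not past 2-fold after rescaling to TPM (0.81). The F1 genes thus spanned log2 ratios from -0.16 to 1.02, and from 0.020 to 0.47, all 5 above 0, with the trend of the ratios with transcript length removed as described below.

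In the other parts of the ATP synthase the deposited values lay between 0.043 and 0.86. The 3 genes of the membrane ring that turns with the protons, whose mature proteins are the same, were all higher: Atp5mc1 had 169 against 269.9 FPKM (0.67), Atp5mc2 had 348 against 592 (0.76) and Atp5mc3 had 339 against 510.0 (0.59). Of the peripheral stalk, Atp5pb had 110.1 against 113 (0.043), while Atp5po, the oligomycin sensitivity protein, had 218 against 372 (0.76). The stalk genes Atp5pd (265 against 438, 0.72) and Atp5pf (137 against 207, 0.59) lay between. The small membrane subunits Atp5mg (421 against 685, 0.70), Atp5mf (249 against 393, 0.66), Atp5me (50.2 against 80.05, 0.66) and Atp5md (159 against 290.1, 0.86) lay within 0.66 to 0.86. With the length trend removed the ring genes spanned 0.026 to 1.07 and the small membrane subunits -0.25 to 1.06. The upper ends were Atp5mc1 and Atp5md, whose longest mouse transcripts had 4715 and 2733 nt. The other ring genes (up to 753 nt) reached 0.23, and the other small membrane subunits (up to 955 nt) reached 0.25. Atp5mg had the highest mean level of the complex. Atp5if1, which inhibits ATP hydrolysis by the synthase, had 304 against 421 (0.47).

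**Figure D2:**
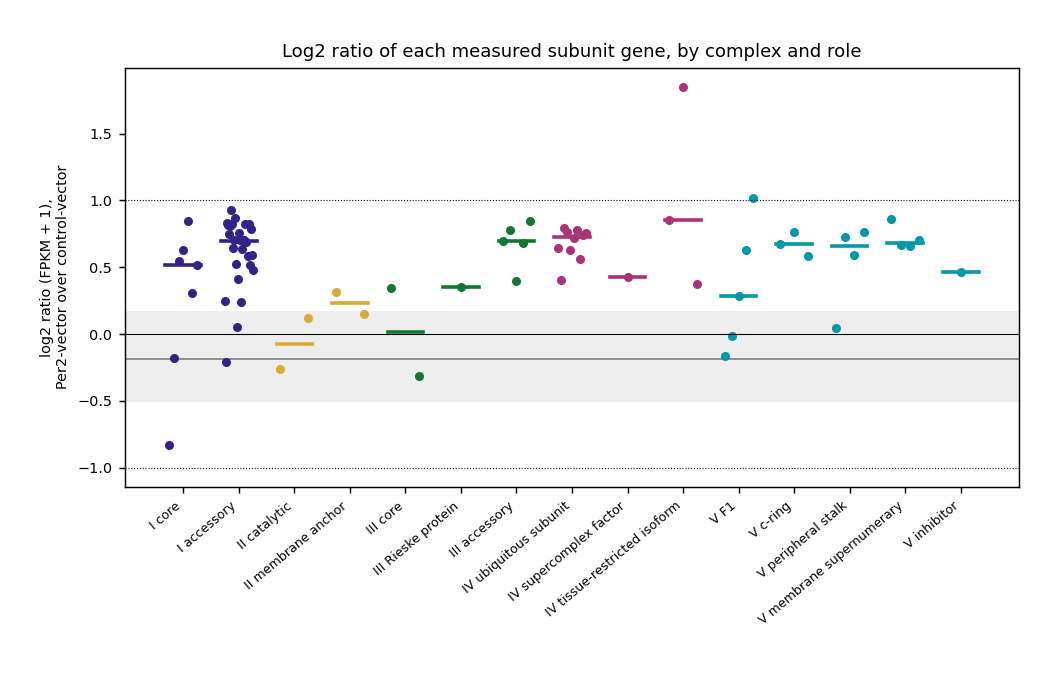
Log2 ratio (FPKM + 1, Per2-labelled over control-labelled library) of each measured member, by complex and role; points are genes, short bars are group medians, the grey line and band are the median (-0.18) and middle 50% (-0.50 to 0.17) of all 12369 rows, and dotted lines mark 2-fold. Accessory and small subunits lie mostly between 0.4 and 0.9, while core and catalytic genes reach down to -0.83 (Ndufs1). The picture shows the deposited scale. With the length trend removed on the longest transcripts, the core genes of complexes I and III no longer had the lower medians, while the catalytic genes of complex II did. Medians by role were not computed on median transcript lengths.

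The members below 0 had long transcripts for this group. Across 76 members with a length (taken from the mouse gene's longest protein-coding transcript in GENCODE M21), length and log2 ratio had a Spearman's rho of -0.40. Across all 10292 genes with a length it was -0.50, so the members follow a trend of the whole table. Of the 7 members below 0, the 6 with a length all had transcripts longer than the members' median of 870 nt, up to 2900 nt (Sdha), while the median of all genes was 3015 nt. Among the 1030 genes of shortest length (216 to 1272 nt, the first of 10 equal bins), which held 54 members, the members had a median of 0.70 and the 976 other genes one of 0.41. In the next bin (1273 to 1743 nt), the 12 members had a median of 0.35 and the 1017 others one of 0.12. The members are also abundant, and the 898 genes whose mean reached 100 FPKM, 60 of them members, had a median of 0.23.

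With the trend with length removed, the members' median log2 ratio was 0.17, against -0.0059 for all genes with a length. Above 0 were then 54 of 76 members, and 49.3% of all genes were. Complex I had a median of 0.19, complex IV of 0.14 and complex V of 0.15, while complexes II and III were at -0.071 and -0.034. By role, the core genes of complex I had a median of 0.24 and its accessory genes one of 0.18. In complex III the core proteins were at 0.0027 and the small accessory genes at -0.040, and in complex V the F1 genes were at 0.17 and the small membrane subunits at 0.12. The lower medians of the core genes of complexes I and III in the deposited values were therefore not seen in this fit on the longest transcripts. Medians by role were not computed on median transcript lengths, so whether the difference by role goes there is not known. In complex II the catalytic genes stayed below the membrane anchors, at -0.11 against 0.24 (-0.073 against 0.23 as deposited), with 2 genes each. In complex V the F1 genes stayed below the ring genes (0.17 against 0.23). At least 2-fold higher were 4 members (1.38% of all genes) and 0 were at least 2-fold lower (2.39%). Of the 4, Cox6a2 (1.26) was also past 2-fold before, and Atp5f1e (0.17) no longer was. The other 3 had long mouse transcripts, namely Ndufb2 (4371 nt, 1.08), Atp5mc1 (4715 nt, 1.07) and Atp5md (2733 nt, 1.06), and their rat lengths were not at hand. Ndufs1 (-0.64) and Ndufa1 (-0.60) were the lowest. The size of this change rests on the length used. With the median instead of the longest transcript of each gene, for which rho across all genes was -0.40, the members' median was 0.51. With a trend on mean level removed as well as that on length, it was 0.041.

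**Figure D3:**
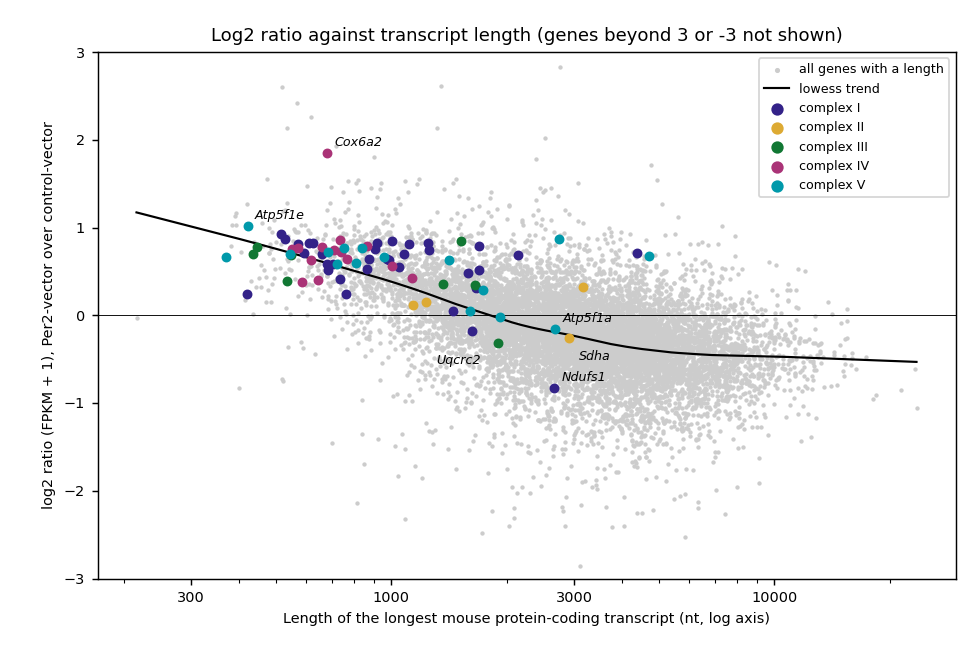
Log2 ratio (FPKM + 1) against the length of the longest mouse protein-coding transcript (log axis) for 10292 genes (grey) and the 76 members with a length (coloured by complex), with the lowess trend in black. Most members lie at the short end, at or somewhat above the trend, and Ndufs1 lies below it.

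Other mitochondrial genes were set beside the subunits. The 47 measured assembly factors, which insert cofactors and join subunits, had a median log2 ratio of 0.17, with 33 above 0 (35.9% of all rows were). Past 2-fold were 0 of them in either direction (2.19% of all rows were higher so and 5.93% lower). After rescaling to TPM their median was -0.014. With the length trend removed it was 0.14, close to the 0.17 of the subunits. The most different were Ndufaf8 (37.8 against 68.8 FPKM), Uqcc2 for complex III (61.4 against 110.0), Higd2a for complex IV (70.0 against 119.8) and Cox14 (128 against 210.3), all higher. Of 17 measured genes of the citrate cycle, pyruvate dehydrogenase and pyruvate carboxylase (Pc), 13 were below 0, as were 64.1% of all rows. The Sdh genes were counted with complex II only. The 17 had a median of -0.28, and 0 were past 2-fold (2.19% of all rows were higher so and 5.93% lower). Dlat (18.3 against 12.2), Fh, fumarase (61.2 against 42.1), Pdha1 (75.7 against 53.0) and Pc (8.43 against 5.76) differed most. Their transcripts were long (median 2580 nt), and with the length trend removed their median was -0.096.

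Electron carriers and exchangers had a median of 0.072 over 15 genes, which turned to -0.13 under TPM. Cycs, cytochrome c, had 84.7 against 125 FPKM, Ndufab1, the acyl carrier protein of complex I, had 24.9 against 35.7, and Etfdh, which brings electrons from fatty acid oxidation, had 26.6 against 15.6. Cyc1, the cytochrome c1 of complex III that the naming rule left out, had 108 against 137. Of 14 measured factors of mitochondrial DNA and biogenesis, 0 were past 2-fold (2.19% of all rows were higher so and 5.93% lower). Nrf1 (8.86 against 8.51), Tfam (21.3 against 21.1) and Esrra (32.8 against 31.5) differed little, while Yy1 had 21.9 against 13.5, Polg, the mitochondrial DNA polymerase, had 8.52 against 5.57, Gabpa had 9.89 against 7.35 and Ssbp1 had 45.2 against 58.5. Ppargc1a, which encodes PGC-1 alpha, was at 0.0391 FPKM where labelled control and listed at 0 where labelled Per2 overexpression. The 13 subunits encoded by mitochondrial DNA had a median of 0.12, or -0.089 under TPM. Among them Mt-co1 had 19553 against 20105 FPKM. Mt-nd4l (837 against 313) was the only 1 of the 13 at least 2-fold lower (5.93% of all rows were). Mt-nd4 had 1308 against 1112 (-0.23).

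Ribosomal protein genes, which are also short, had medians above 0 too. The 75 measured cytosolic ones, which are abundant, had a median of 0.81, and 0.35 with the length trend removed. Of these, 11 were at least 2-fold higher in the deposited values (2.19% of all rows were). The 75 measured mitochondrial ones, with a median level of 32.5 against 40.8 FPKM, had a median log2 ratio of 0.39, and 0.16 with the trend removed. Shifts in the same direction were therefore seen outside oxidative phosphorylation. The design allows no test of whether the subunits differ from these groups.

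**Figure D4:**
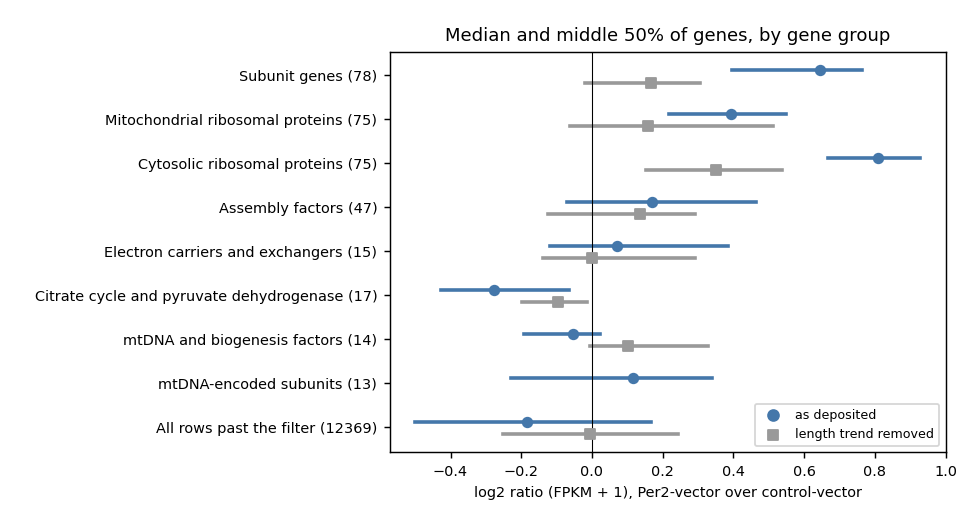
Median (point) and middle 50% (bar) of the log2 ratio (FPKM + 1) in each gene group as deposited (blue) and with the length trend removed (grey), with the number of measured genes in brackets; mtDNA-encoded subunits had no length. The subunit genes had a median of 0.65 as deposited and 0.17 with the length trend removed. The citrate cycle group includes pyruvate carboxylase and leaves out the Sdh genes.

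Markers of cell types differed between the libraries too, and their part in the values above was not tested. Of 12 measured microglia markers, 10 were below 0 (64.1% of all rows were) and 5 at least 2-fold lower (5.93% of all rows), led by C1qb (116 against 22.3 FPKM). Their median log2 ratio was -0.59, while the list summed to 2559 against 2293 FPKM, of which Tyrobp, which was higher, made up the largest share. All 10 astrocyte markers were below 0 (sum 439 against 198 FPKM), with 5 at least 2-fold lower. Of 6 measured oligodendrocyte lineage markers 5 were below 0 (36.3 against 20.9 FPKM over the list). Neuron markers summed to 40.3 against 27.6 FPKM, with Rbfox3 and Slc17a7 listed at 0. Fibroblast markers summed to 588 against 419 FPKM, and endothelial markers to 60.1 against 63.4, with Cldn5 listed at 0. Esam (54.2 against 59.2) made up most of the endothelial sum, and the other 2 measured endothelial markers were below 0.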

How the data were processed

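The authors deposited 1 table of FPKM values, 1 column per library, with rat Ensembl identifiers and symbols. The submitters' processing notes name HISAT2, StringTie, DESeq2 and edgeR and the rat build Rnor_6.0, without versions or order. No strand-marking step is named in the labels' protocols, so overlapping antisense genes cannot be told apart. Subunit genes have processed copies in rodent genomes, and how reads shared between copies were counted is not given in the sources used here. Depth is unknown, so no counting intervals are given. Mouse reads placed on a rat genome would lose counts at diverged genes in both libraries, and the species could not be settled here.

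Columns were assigned by library name. Of rows sharing a symbol (4 members), the one with the higher mean was kept. A mean of at least 1 FPKM was required, and log2 ratios used a pseudocount of 1, which understates low genes. A gene was called where its log2 ratio reached 1 or -1 (2-fold). With 1 library per group no test was run, and the same counts over all 12369 rows are given beside those of members. The members, lists and rules were chosen with earlier results of these data known. One measured member is counted in all summaries but not reported by name here. The other members could be named; of other lists, genes with the largest absolute ratios and textbook genes were named, the latter (Cyc1, Nrf1, Tfam, Esrra, Gabpa, Ppargc1a and the most abundant markers among them) after their values were seen. Lengths were matched by symbol or RefSeq synonym for 76 of 78 members (97.4%) and 10292 of 12369 rows (83.2%). The trend with length was a lowess fit (span 0.3, statsmodels 0.14.6, Python 3.11.15). The fit was tried only on simulated ratios with a straight trend and larger shifts in randomly picked genes. That trial cannot check the adjusted values of the members, most of which are short and have mouse lengths. Removing the trend also recentres the ratios.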

Additional observations from a re-analysis of the deposited data

How the results depend on the processing

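No setting leaves out a replicate, since each group has 1 library. No paired analysis was possible because each group has 1 library and the values come from no test. Without a spread between replicates, a value counts as unchanged only if equal at 2 decimals. Medians are given for all members, then complexes I, II, III, IV and V.

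As deposited they were 0.65, 0.64, 0.14, 0.54, 0.73 and 0.66. A pseudocount of 0.1 gave 0.65 for complex I and left the rest as they were. A pseudocount of 5 gave 0.62, 0.62, 0.13, 0.53, 0.68 and 0.62. There 1 member was at least 2-fold higher in place of 2 (0.97% of all rows were), Cox6a2 being the call lost. No filter gave 0.64 for all members and 0.72 for complex IV. A filter of 5 FPKM left 1 member at least 2-fold higher (the share of all rows was not computed). Summing rows that share a symbol gave 0.57 for complex III. TPM gave 0.44, 0.44, -0.068, 0.33, 0.52 and 0.45. At least 2-fold higher was then 1 member (1.53% of all rows), and 1 (Ndufs1) was at least 2-fold lower in place of 0 (11.3% of all rows). Median-of-ratios centring gave 0.86, 0.86, 0.35, 0.75, 0.94 and 0.87, with 15 at least 2-fold higher (4.27% of all rows).

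Removing the length trend gave 0.17, 0.19, -0.071, -0.034, 0.14 and 0.15, with 4 at least 2-fold higher (1.38% of all genes with a length). In that setting 20 of 76 members changed sign. The other 3 length settings were chosen after seeing the data. Fitting the trend without the members gave 0.17, 0.19, -0.069, -0.032, 0.15 and 0.15, again with 4 higher. Median transcript lengths gave 0.51, 0.54, 0.10, 0.45, 0.58 and 0.52, with 1 higher. For either of these settings the share over all genes was not computed. Removing the level trend too gave 0.041, 0.12, -0.14, -0.14, 0.028 and 0.029, with 1 higher (1.31% of all genes with a length). The cause of these shifts was not tested.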
